A study of Drosophila melanogaster with 11 samples.

Results

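The peaks of a DamID library of the Notch target protein E(spl)m8-HLH that lie on the X chromosome of Drosophila melanogaster were examined. They are all rows of the authors' Qseq peak table assigned to X, 465 of 3973 peaks or 11.7%, and were taken by chromosome alone, whatever their value. The study holds 11 libraries of ChIP and DamID for Su(H), m5 and m8, under 6 conditions. Used here is 1 condition, the un-driven m8 DamID, and the table holds 1 of its 2 libraries. Its embryos carried a UAS transgene for an m8-Dam fusion and no Gal4 driver, so that leaky expression supplied low levels of the fusion protein, and they were collected from stage 9 to 16 at 26 °C. Whole embryos were pooled, so a weak signal in many cells and a strong one in few cannot be told apart. The sources used here do not give the sex of the embryos, so the number of X copies per cell cannot be told apart from other properties of X. None of the 11 libraries is of unfused Dam, so the part of the methylation that open chromatin alone would give was not tested. With 1 library there is no replicate error, so no test was made and the 95% intervals cover counting error only. PCR copies are not independent molecules. For comparison, the large autosomal arms 2L, 2R, 3L and 3R hold 694, 765, 777 and 884 Qseq peaks.

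In Drosophila, females carry a pair of X chromosomes and males a single one, and the MSL complex with its roX RNAs raises transcription of the male X. X carries genes that count X chromosomes and set the sexual state, above all Sxl, and many genes of embryonic patterning and of the nervous system, among them the Notch receptor gene itself and the proneural genes of the achaete-scute complex. The m8 protein, a repressor of the bHLH family, is made in response to Notch signaling and acts with the corepressor Groucho on sites related to the E-box. In DamID, the bacterial Dam methylase fused to the protein marks adenines in GATC sites near the places it visits. The marked DNA is cut out, amplified and sequenced, so that a peak is a block of fragments between GATC sites and not a footprint of the protein.

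The sequence under most X peaks could not be read, because the positions of X in the table are not those of the genome used here, Release 6 of RefSeq. Of 439 pairs of an X peak and a gene the table says it intersects, 14 (3.19%) overlapped by position in Release 6. A peak that intersects both genes of a pair that start away from each other must, however, hold the shared promoter region between the gene starts, provided the gene bounds of the authors' annotation are like those of Release 6. There were 12 such peaks on X, with gaps of 33 to 1154 bp between the gene starts and peak values of 28.6 to 117.4 reads per 1000000 library reads (RPM). Of 393 neighbouring divergent pairs on X with a gap of at most 1500 bp, 11 were held by 1 peak. The 5 gaps of at most 300 bp at peaks of 50 RPM or more are printed, 5′ to 3′ on the plus strand of Release 6, to show what DNA these peaks contain. Capitals mark the E-box CACGTG, searched on both strands together with CACGCG and CACNAG for bHLH repressors, GTGGGAA and GTGAGAA for Su(H), GAGAGAG for GAGA factor and TATCGATA, the DNA replication-related element.
Dd/CG1486, chrX:21324010-21324045: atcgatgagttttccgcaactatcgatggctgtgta
CG32638/CG15717, chrX:13128795-13128951: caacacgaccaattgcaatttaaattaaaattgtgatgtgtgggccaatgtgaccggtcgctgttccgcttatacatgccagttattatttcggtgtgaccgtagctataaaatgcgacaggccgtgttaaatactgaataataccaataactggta
O-fut2/CG14777, chrX:1465997-1466133: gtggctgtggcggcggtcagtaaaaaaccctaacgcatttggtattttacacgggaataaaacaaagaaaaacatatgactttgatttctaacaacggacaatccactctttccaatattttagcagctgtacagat
CG1463/Fpgs1, chrX:12611668-12611866: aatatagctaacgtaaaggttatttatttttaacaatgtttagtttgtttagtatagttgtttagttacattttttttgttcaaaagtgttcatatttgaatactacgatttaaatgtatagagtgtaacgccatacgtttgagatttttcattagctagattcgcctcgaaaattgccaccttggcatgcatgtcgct
Traf6/GIIIspla2, chrX:8157387-8157627: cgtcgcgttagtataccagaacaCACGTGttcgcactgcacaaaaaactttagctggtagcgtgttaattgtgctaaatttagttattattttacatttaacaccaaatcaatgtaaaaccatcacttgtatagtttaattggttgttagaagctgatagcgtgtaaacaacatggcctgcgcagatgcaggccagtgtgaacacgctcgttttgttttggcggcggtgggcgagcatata

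None of the 5 printed gaps contains a GATC site, and their G and C content ranges from 30.2% to 44.4%. Over all 12 gaps, 9 held no GATC, where windows of the same lengths before the starts of the 2704 X genes measured would give 6.79. The peak over Dd, the gene of the phosphatase Dullard, and CG1486 was the highest of the 12 at 117.4 RPM, over a gap of 36 bp. The peak at Traf6, which encodes an adaptor of TNF receptors, and GIIIspla2, a secreted phospholipase A2 gene, had 57.1 RPM, and its gap was the only one of the 12 with CACGTG. In 3.44% of windows of that length before X genes this E-box was found, and summed over the lengths of the 12 gaps such windows would give 0.560 gaps with it. O-fut2, a protein O-fucosyltransferase gene, shared a peak of 65.4 RPM with CG14777, and Fpgs1, a folylpolyglutamate synthase gene, one of 57.7 RPM with CG1463. CACNAG was found in 3 of the 12 gaps, where windows would give 3.46, and TATCGATA in 1, where they would give 1.16, all outside the printed set. The other motifs were found in 0, where windows would give 0.378 to 0.875. A match is a description of the letters and no evidence of a bound site. The absence of a match says only that the letters are not in that window.

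X held fewer peaks per length than every large autosomal arm. There were 19.8 Qseq peaks per Mb on X (18.0 to 21.6, exact Poisson interval), against 29.5 on 2L, 30.3 on 2R, 27.6 on 3L and 27.6 on 3R. The lowest bound among these 4 arms was 25.7 per Mb, above the upper bound of X. X therefore had 0.690 times the density of the 4 arms together (0.625 to 0.761). Release 6 holds 2869 GATC sites per Mb on X, inside the range of 2657 to 2918 on the autosomal arms, with a median distance of 184 bp on X and 195 to 202 bp elsewhere. Genes were sparser on X, with 114.9 per Mb against 123.9 to 149.2, and counted per 100 genes X had 17.2 peaks against 19.8 to 22.3. The peaks of X covered 1.64% of its length, compared with 2.41% to 2.69% of the autosomal arms.

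**Figure D1:**
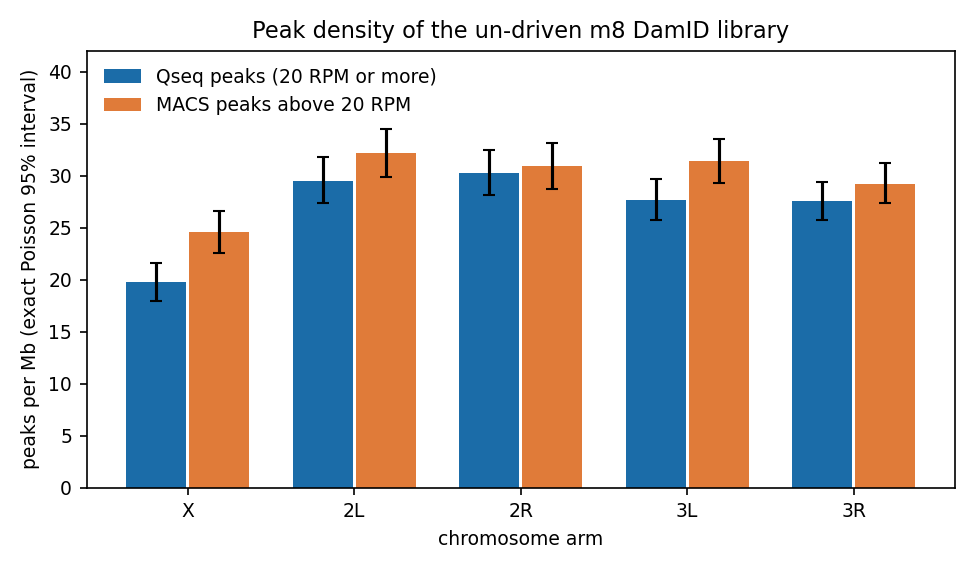
Peaks per Mb of chromosome arm (vertical axis) for X and the 4 large autosomal arms, from the Qseq table and from the MACS table above 20 RPM of the same library. Bars start at 0 and whiskers are exact Poisson 95% intervals; X is lowest in both tables, at 19.8 and 24.6 peaks per Mb.

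The peaks called by MACS on the same library gave a smaller gap. Above 20 RPM, the MACS table held 24.6 peaks per Mb on X and 29.2 to 32.2 on the autosomal arms, a ratio of 0.797 (0.729 to 0.871). Under 20 RPM it held 8.75 per Mb on X, inside the autosomal range of 7.71 to 10.5, with a ratio of 0.959 (0.822 to 1.12). With both MACS tables together the ratio was 0.834 (0.772 to 0.900). The size of the deficit on X thus depends on the peak caller, while its direction was the same in the Qseq table and in MACS above 20 RPM. Both callers read the same library, so they are no replicates of each other.

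The ratio of X to the autosomal arms was lowest among high peaks, though its interval there overlaps that of the class below. X held 45 Qseq peaks of 100 RPM or more against 532 on the 4 autosomal arms, 0.392 times their density (0.282 to 0.531). Between 20 and 25 RPM the ratio was 0.801 (0.645 to 0.987), and in the 4 classes from there to 100 RPM it lay between 0.669 and 0.796, with intervals that overlap one another. MACS peaks of 100 RPM or more, 88 on X and 829 on the autosomal arms, gave a ratio of 0.491 (0.390 to 0.613). Peaks of 100 RPM or more made up 9.68% of X peaks (7.15% to 12.7%, exact binomial interval) and 15.7% to 19.3% of the peaks of each autosomal arm. The tenth highest peak stood at 198.9 RPM on X and at 394.8 to 454.5 RPM on the autosomal arms.

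**Figure D2:**
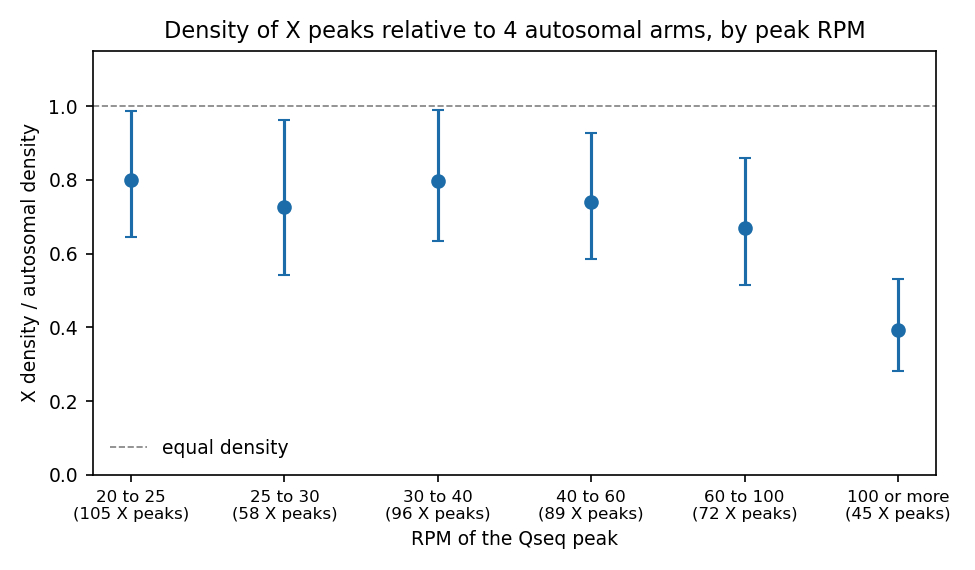
Density of Qseq peaks on X divided by that on the 4 large autosomal arms (vertical axis), by the RPM of the peak (horizontal axis). Points are ratios and whiskers exact 95% intervals for counting error; the ratio is 0.801 at 20 to 25 RPM and 0.392 at 100 RPM or more.

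In the Qseq table, a typical X peak was close to an autosomal one. The median RPM was 37.4 on X (34.8 to 39.5, order-statistic interval) and 39.5 to 41.6 on the autosomal arms, whose intervals overlap that of X. The upper quartile lay at 60.3 RPM on X and at 70.8 to 82.1 RPM on the others. The median length of 727 bp (696 to 762) was lowest on X but overlapped the intervals of the 4 arms, whose medians were 744 to 766.5 bp. Per kb of peak, the median was 103.3 reads on X (97.7 to 110.2) and 107.7 to 113.5 reads elsewhere. All arms share the authors' minimum of 20 RPM, and the lowest X peak had 20.3 RPM or 39 reads. Summed over all peaks, X carried 1159 RPM per Mb against 1879 to 2214 on the autosomal arms, and 1056 against 1842 to 2160 when the highest peak of each arm was left out. In MACS above 20 RPM the medians stood further apart, at 47.3 RPM on X (42.6 to 51.4) and 55.6 RPM on the 4 arms together (53.5 to 57.7). The MACS intervals of single arms reach down to 50.4 RPM.

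X peaks were spread along the whole arm. In the table's own numbering they run from 23352 to 22261397, with 10 to 37 peaks in each full Mb and a median of 21. The richest Mb, from 6 to 7 Mb, held 37 peaks with a highest value of 205.7 RPM at CG14441. The fewest were 10 peaks from 20 to 21 Mb, followed by 11 each from 9 to 10 Mb and from 21 to 22 Mb. The longest stretch without a peak was 460265 bp, from 19788296 to 20248560. The median gap between neighbouring peaks was 21370.5 bp on X and 8899 to 10320 bp on the autosomal arms. Of the X peaks, 62.6% (58.0% to 67.0%) lay within 10 kb of another, against 72.0% to 75.0% elsewhere.

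The highest X peak lies between genes next to CG14621 and stands apart from the others in shape and in height. It had 2417 RPM (2348 to 2487, 4653 reads) on 248 bp, which is 18.8 reads per bp, and it had rank 5 among all 3973 peaks. The MACS peak that overlaps it had 135.6 RPM on 331 bp, so that the callers differ 17.8-fold for nearly the same block. At nAcRalpha-7E, a nicotinic acetylcholine receptor subunit gene, the next peak had 536.1 RPM on 2165 bp, or 0.477 reads per bp, and 380.2 RPM in MACS. Every other X peak of the 20 highest had between 0.117 and 0.505 reads per bp.

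The third highest X peak fell inside ph-p, which encodes the Polycomb subunit Polyhomeotic, with 436.3 RPM (407.3 to 466.9) by Qseq and 376.1 RPM by MACS. It was followed by a peak over CHES-1-like, a forkhead factor gene, and CG43287 at 391.7 RPM, one over CG3777 and CG32816 at 352.7 RPM, and one over hiw and CG5541 at 330.4 RPM. The product of hiw is a ubiquitin ligase that limits the growth of synapses. CG8408 had a peak of 249.9 RPM and CG14441 one of 205.7 RPM. Tis11, which encodes a zinc finger protein that promotes the decay of mRNAs, carried peaks of 199.5 and 170.9 RPM. A peak of 198.9 RPM lies in a gene whose name the spreadsheet cut to "su", which several X genes share, so the gene is not named here.

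The peak between Her, a gene of the Hairy and E(spl) repressor family that RefSeq calls Hesr, and Him, an inhibitor of muscle differentiation, had 191.2 RPM (172.1 to 211.7) by Qseq and 150.1 RPM by MACS. Smr, a corepressor of the SMRT and NCoR family, had peaks of 167.8 and 132.5 RPM that overlap each other and lie in 1 MACS peak of 267.5 RPM. Between RpL22, a ribosomal protein gene, and fz3, a member of the Frizzled receptor family, stood a peak of 194.3 RPM. The remaining peaks of the 20 highest were at Zw, which encodes glucose-6-phosphate dehydrogenase (176.6 RPM), over the innexin gene ogre and bou (176.6 RPM), at CG9095 (175.6 RPM), meso18E (174.0 RPM), pico (167.3 RPM) and the bZIP factor gene Atf3 (165.7 RPM). From rank 9 at 199.5 RPM to rank 20 at 165.7 RPM the steps between neighbours were smaller than their counting intervals, so the order within this stretch is not resolved.

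Of the 2705 X genes in RefSeq, 350 were named by at least 1 X peak, as a gene it intersects or, where it intersects none, as a flanking gene, which is 12.9% (11.7% to 14.3%). The share was 12.4% to 14.8% on the autosomal arms, so by matched names X lay inside their range. Names failed to match more often on 2L, 2R and 3R than on X, which can lower the shares of these arms. On X 26 of 604 mentions of a name were unmatched. There were 103 of 953 on 2L, 113 of 1007 on 2R, 30 of 1037 on 3L and 75 of 1122 on 3R. Genes intersected by a peak numbered 271, or 10.02%, against 8.95% to 10.9% elsewhere. Among protein-coding genes 333 of 2197 were named (15.2%), and among lncRNA genes 12 of 241 (4.98%). All 58 pseudogenes, 31 snoRNA and 24 tRNA genes of X stayed without a match, although at least 2 tRNA names in the table could not be matched to a single gene. The names could be read well, since 97.2% of 361 distinct names on X peaks matched 1 gene that RefSeq also places on X. Exceptions include 14 peaks with a name cut at its bracket and 2 names that a spreadsheet had turned into a date.

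X genes are longer than those of the autosomal arms, with a median span of 2063 bp against 1486 to 1776 bp, and long genes were named more often on every arm. Within classes of gene span X was lower than the 4 arms together each time. Genes under 2 kb were named in 4.52% of cases on X (3.47% to 5.78%) and 5.48% on the arms, which differ by less than the intervals. Genes of 2 to 5 kb were named in 7.80% on X (5.93% to 10.03%) and 11.3% on the arms (10.3% to 12.4%), the single class in which the intervals do not overlap, although 2L alone had 9.07%. From 5 to 20 kb the shares were 28.3% (24.2% to 32.6%) and 33.4%, and over 20 kb 49.5% (42.6% to 56.5%) and 53.5%.

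**Figure D3:**
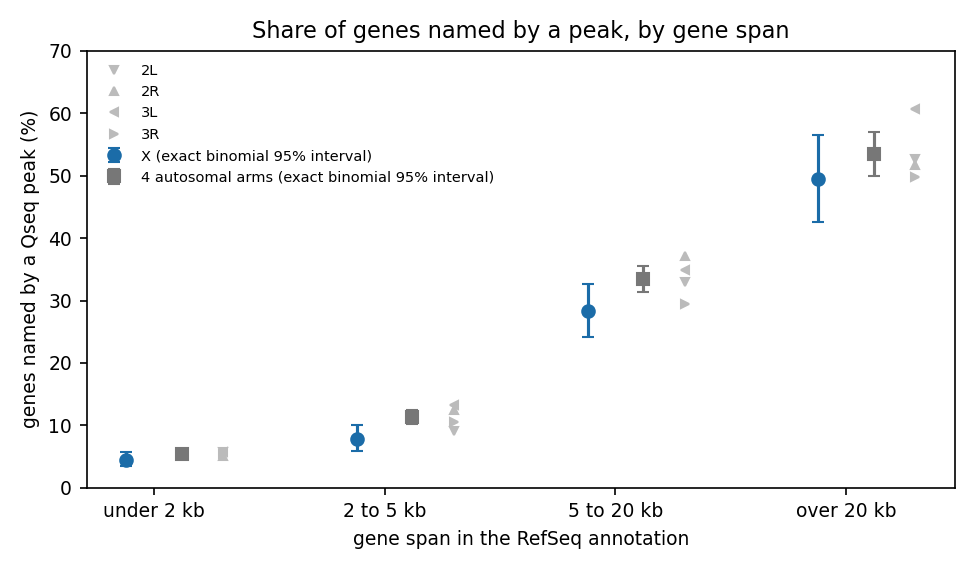
Percent of RefSeq genes named by a Qseq peak (vertical axis) in 4 classes of gene span, for X, for the 4 large autosomal arms together and, as small symbols, for each arm. Whiskers are exact binomial 95% intervals; the share rises with gene span on all arms, from 4.52% to 49.5% on X.

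Of the X peaks, 83.9% (80.2% to 87.1%) intersected a gene, inside the autosomal range of 74.6% to 84.3%. Peaks that intersect more than 1 gene made up 13.8% (10.8% to 17.2%) on X and 7.92% to 13.7% elsewhere. Restricted to peaks inside genes, the density ratio of X to the autosomal arms was 0.727 (0.652 to 0.809), and for peaks between genes 0.546 (0.424 to 0.694), so X was below the arms for both kinds, with overlapping intervals.

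Most named genes had a single peak. On X, 219 genes were named by 1 peak, 80 by 2 and 51 by 3 or more. The lncRNA gene CG32773, which spans 223710 bp, was named most often, by 8 peaks between 21.3 and 160.5 RPM. CG42684, the Ras GTPase-activating gene raskol, followed with 7 peaks of up to 79.5 RPM. Tis11 had 6 peaks, all inside the gene, at 41.6, 170.9, 97.1, 199.5, 36.9 and 33.8 RPM in the order of the table. Only 23146 bp long, it had the highest sum of these genes, 579.7 RPM. Other genes with 6 peaks were fog, which encodes the ligand that drives cell shape change in gastrulation (up to 84.7 RPM), CG42346 (84.7 RPM), CG12535 (45.7 RPM) and sog. The product of sog, a secreted antagonist of BMP signals, acts in dorsoventral patterning and in the neurogenic ectoderm. The 6 Qseq peaks that name sog, 4 of them inside the gene, were all low, from 20.3 to 35.3 RPM. None of them alone would rank among the upper 200 peaks of X. MACS gave a peak of 71.2 RPM in sog that overlaps the highest of them. A flanking peak of 28.1 RPM, beside CG9220, lies in a MACS peak of 205.7 RPM. CG42666 (prage), CR43836, CG42388 (Nost), CG15745 (IP3K2), the TNF receptor gene wgn and spri were each named by 5 peaks. For IP3K2 only 1 of these lies inside the gene, and for wgn 4. CR43836 and CG42388 were named by the same 5 peaks, of 29.1 to 70.6 RPM.

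Of 7 Notch pathway genes on X, 2 were named by a peak (28.6%), and of 6 proneural and pan-neural genes 1 (16.7%), against 12.9% of all X genes. The Notch list had a median span of 14601 bp, and the named genes N and nej span 37352 and 21625 bp. Among all X genes, 28.3% of those of 5 to 20 kb and 49.5% of those over 20 kb were named. The part of gene span in these shares was not tested. N had 1 peak of 78.4 RPM (66.4 to 92.0) inside the gene, and nej, which encodes the coactivator CBP, had 1 of 20.8 RPM near the minimum. The other 5 had no Qseq peak, and 1 of them, the clathrin heavy chain gene Chc, had a MACS peak of 34.8 RPM. Among the proneural and pan-neural genes, elav, the RNA-binding protein gene that marks neurons, had peaks of 74.3 and 77.4 RPM which it shares with arg and which lie in 1 MACS peak of 181.3 RPM. The proneural genes ac and sc and the neuroblast gene ase had none in the Qseq table or in MACS above 20 RPM, and a peak at their neighbour l(1)sc could not be recognised because its name is cut at the bracket.

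Of the neural and segmentation transcription factors 9 of 19 were named (47.4%, against 12.9% of all X genes), in a list whose genes had a median span of 20523 bp. Among all X genes over 20 kb, 49.5% were named. Highest by Qseq was the zinc finger gene disco, flanked by a peak of 129.9 RPM (114.3 to 147.0, and 96.6 RPM by MACS), with 2 more flanking peaks of 26.5 and 23.4 RPM. The T-box gene bi had 90.9 RPM, the zinc finger gene Sp1 82.6 RPM and the homeobox gene vnd of ventral neuroblasts 65.4 RPM, all inside the gene. The Bar homeobox gene B-H2 was flanked by a peak of 71.7 RPM. In Release 6 the gap between B-H2 and the gene on the other side, CR43491, is 54200 bp. Lower Qseq values were found at the LIM-only gene Bx (57.1 RPM, but 144.4 RPM by MACS, above disco) and the homeobox gene ct (26.0 RPM). The highest peaks naming unc-4 (31.2 RPM) and disco-r (30.1 RPM) flank these genes. The pair-rule gene run had no Qseq peak and a MACS peak of 110.6 RPM. Among 5 hormone response and epithelial factors, the nuclear receptor gene Hr4 had 109.6 RPM (95.3 to 125.4) and ovo 21.8 RPM. The gene peb, also called hindsight, was flanked by a peak of 55.1 RPM, and br had no Qseq peak and a MACS peak of 85.7 RPM.

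Of 10 cell cycle genes on X, fzr, an activator of the anaphase-promoting complex, had 27.0 RPM (20.2 to 35.4) and tlk 21.8 RPM. Myc was flanked by a peak of 23.9 RPM. All were under the X median of 37.4 RPM. For Myc, named dm in the tables, MACS gave 57.7 RPM for the flanking block, between dnc and Myc. MACS peaks of 52.5 and 32.7 RPM lie inside Myc, and no Qseq peak overlaps these. Of 4 genes of neuroblast polarity, baz, the gene of the apical protein Par-3, had 1 peak of 49.3 RPM (39.9 to 60.3).

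In the JAK-STAT list of 5 signaling genes, the ligand gene upd3 had 3 peaks, the highest inside the gene at 60.3 RPM. Its neighbour is named os in the table, a name that RefSeq lists for upd1 and upd3 alike, and a peak of 148.6 RPM (131.8 to 166.8) lies between os and CG6023. In Release 6 the protein-coding gene between upd3 and CG6023 is upd1, with lncRNA genes beside it. Of 6 Wingless pathway genes 2 were named (33.3%), in a list with a median span of 4027.5 bp. Of all X genes of 2 to 5 kb 7.80% were named, and the named genes arm and sgg span 9246 and 45602 bp. The beta-catenin gene arm had 73.2 RPM and the kinase gene sgg 39.997 RPM by Qseq. A MACS peak of 192.2 RPM lies elsewhere in sgg, and no Qseq peak overlaps it. Wnt5 had no Qseq peak and a MACS peak of 90.9 RPM. Of 9 genes of TGF-beta and EGFR to MAPK signaling 4 were named (44.4%), in a list with a median span of 11230 bp. Among them Raf, named phl in the table, had the highest peak at 130.4 RPM (114.7 to 147.5) and 4 peaks in all. The receptor gene sev had 42.6 RPM, sog 35.3 RPM and the phosphatase gene csw 32.2 RPM. MACS gave higher top values, 199.98 RPM at Raf, 52.5 RPM at sev, 71.2 RPM at sog and 82.1 RPM at csw. These are not always the same blocks. No Qseq peak overlaps the MACS peaks named here at Raf and csw. The one at sev overlaps a Qseq peak of 20.8 RPM and not that of 42.6 RPM.

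Of 6 genes of sex determination and dosage compensation 1 was named (16.7%, against 12.9% of all X genes). The list had a median span of 2191 bp, and of all X genes of 2 to 5 kb 7.80% were named. The named gene, Sxl, the switch gene of female development, spans 23504 bp. It had 1 peak of 55.1 RPM (45.1 to 66.6) and a MACS peak of 49.9 RPM. The genes roX1 and roX2 of the roX RNAs, mof, which encodes the histone acetyltransferase of the MSL complex, sisA and snf had none in the Qseq table or in MACS above 20 RPM. Of 10 chromatin genes, ph-p and the TBP-related factor gene Trf2 (104.9 RPM) had Qseq peaks. A peak at fs(1)h could not be recognised, since its name is cut at the bracket, and a peak of 28.1 RPM names a gene cut to "fs". The neighbouring copy ph-d had no Qseq peak and a MACS peak of 330.9 RPM, close to the 376.1 RPM of ph-p. The copies ph-p and ph-d are near-identical over part of their length, so reads could be placed in either, and the values of each are uncertain.

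Of 9 neural adhesion genes, 4 had a Qseq peak and 8 a MACS peak above 20 RPM, against 12.9% and 17.3% of all X genes. This list had a median span of 48544 bp, and of all X genes over 20 kb 49.5% were named by Qseq. No share by gene span was computed for MACS, so the part of gene span in the 8 of 9 was not tested. Highest by Qseq was sdk, an immunoglobulin adhesion gene, at 135.6 RPM (119.6 to 153.1), followed by the integrin gene if (78.4 RPM), the teneurin gene Ten-a (74.8 RPM) and kirre (67.5 RPM). MACS gave another order, with 270.1 RPM at Ten-a, 156.4 RPM at kirre, 155.8 RPM at if and 135.1 RPM at sdk. The MACS peak of 156.4 RPM intersects both kirre and the adhesion gene rst, so it is counted for each of them. No Qseq peak overlaps it, and rst had no Qseq peak. The Qseq peak of 67.5 RPM in kirre lies in another MACS peak, of 104.4 RPM. Nrg had no Qseq peak and a MACS peak of 98.2 RPM. In the list of 9 excitability genes, with a median span of 54513 bp, 3 were named by Qseq (33.3%). The phospholipase C gene norpA had 120.5 RPM (105.5 to 137.1) and the phosphodiesterase gene dnc 36.9 RPM. The adenylyl cyclase gene rut was flanked by a peak of 20.3 RPM. Of 13 ribosomal protein genes on X, RpL22 alone was named (7.69%), as a flanking gene. This list had a median span of 1708 bp, and of all X genes under 2 kb 4.52% were named. Among 6 genes of metabolism and pigment, with a median span of 4919.5 bp, 2 were named (33.3%). Of all X genes of 2 to 5 kb 7.80% were named, and the named genes Zw and w span 5102 and 5868 bp. Zw had 176.6 RPM and the pigment transporter gene w 20.8 RPM. Over all lists 39 of 124 X genes were named, or 31.5%, against 12.9% of all X genes. The list genes had a median span of 7481.5 bp against 2063 bp, and of all X genes of 5 to 20 kb 28.3% were named. The part of gene span in the share of the list genes was not tested. The median of their highest peaks was 60.3 RPM, against 46.2 RPM over all 350 named X genes.

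**Figure D4:**
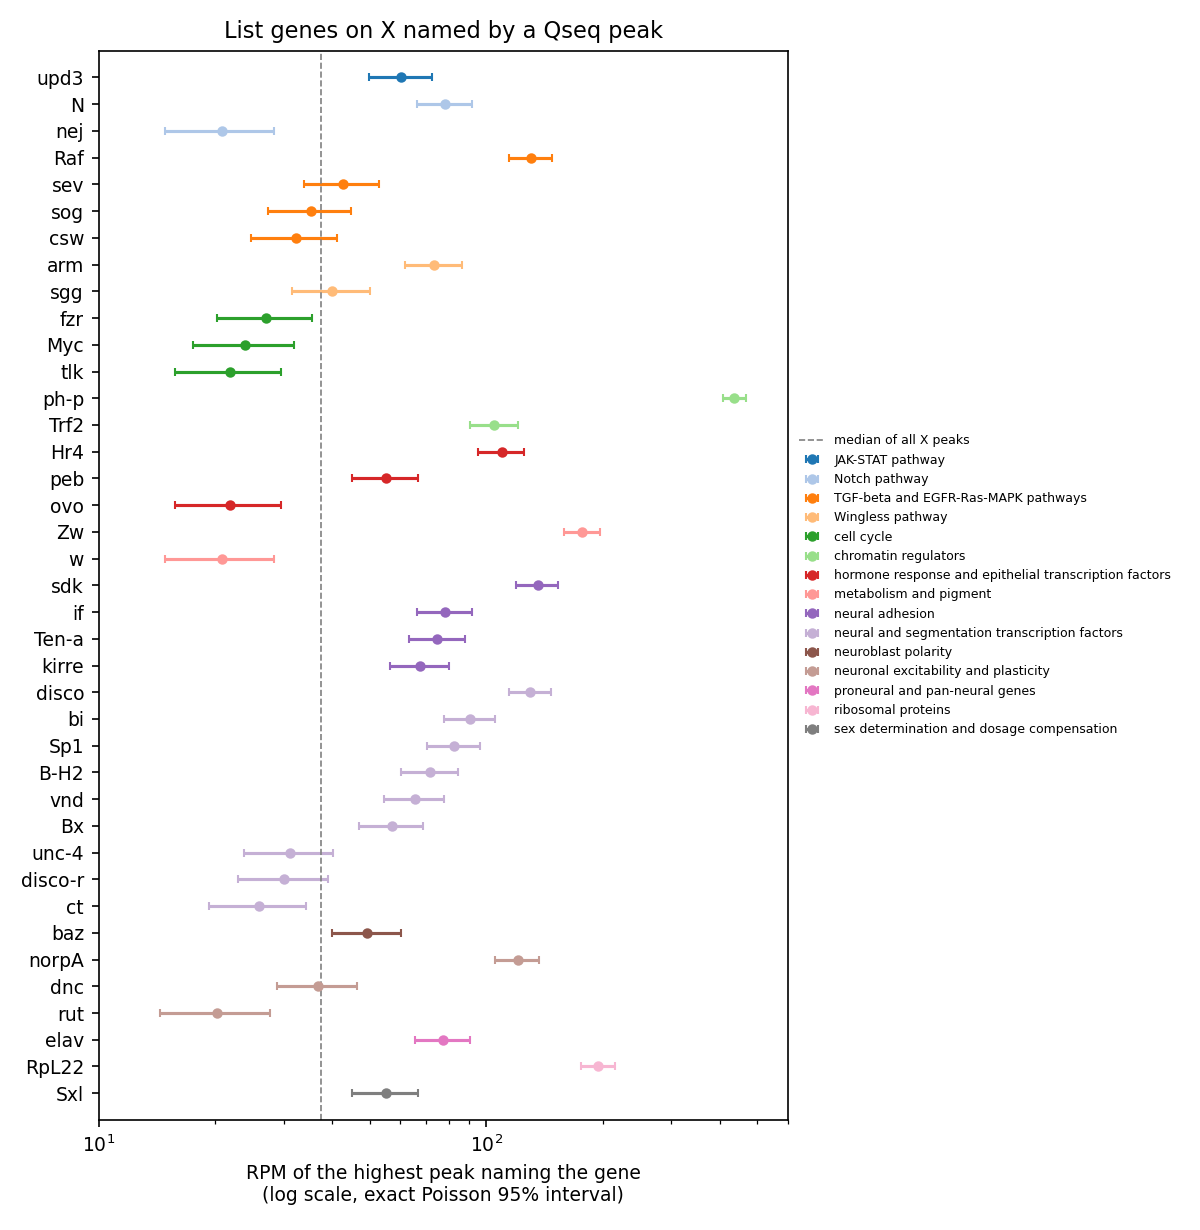
RPM of the highest Qseq peak that names each of 39 list genes on X (horizontal axis, log scale), coloured by list. Points are values of the 1 library, whiskers exact Poisson 95% intervals and the dashed line the median of all X peaks, 37.4 RPM; ph-p is highest at 436.3 RPM and rut lowest at 20.3 RPM.

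Of 58 miRNA genes on X, 1 was intersected by a peak and 2 more flank one. The share named was thus 5.17%, against 12.9% of all X genes and 4.52% of X genes under 2 kb. The gene mir-927 lies with mmd, which encodes an ADAM metalloprotease, under a peak of 64.9 RPM (125 reads) by Qseq and 58.7 RPM by MACS. Its mature sequences are given as the identity of the single miRNA gene under an X peak, read from the minus strand of Release 6 by the coordinates of the annotation, with the seed, bases 2 to 8, in capitals.
mir-927-RA, chrX:15966002-15966023: uUUAGAAUuccuacgcuuuacc
mir-927-RB, chrX:15965962-15965983: cAAAGCGUuuggauucugaaac

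The seeds of the mature sequences differ. The gene mir-985 stands between disco-r and disco in the table and flanks 3 peaks of 30.1, 26.5 and 23.4 RPM, and mir-969 flanks 1 of 28.1 RPM next to wupA.

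Of the 465 X Qseq peaks, 389 overlapped a MACS peak above 20 RPM, which is 83.7% (80.0% to 86.9%), above each autosomal arm at 71.1% to 79.7%, although the interval overlaps those of 2L and 3L. With the MACS peaks under 20 RPM added it was 405 or 87.1%. The 76 peaks without a match were low, with a median of 26.0 RPM against 39.997 RPM for the matched. The exceptions at 100 RPM or more were a peak of 120.5 RPM in norpA and one of 120.0 RPM on 217 bp in mal, 2 of 45 such peaks. In 315 cases 1 Qseq peak met 1 MACS peak, with a median RPM ratio of Qseq to MACS of 1.04 (quartiles 0.809 and 1.16). In 29 of these the Qseq value was under 0.5 times the MACS value, and in 1, the peak at CG14621, it was over 2 times that value. An example of the former is NFAT, where a Qseq peak of 460 bp and 37.9 RPM lies in a MACS peak of 2198 bp and 364.1 RPM. In the other 35 MACS peaks several Qseq peaks, 74 in all, shared 1 MACS peak, and their summed RPM had a median of 0.997 times the MACS value.

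**Figure D5:**
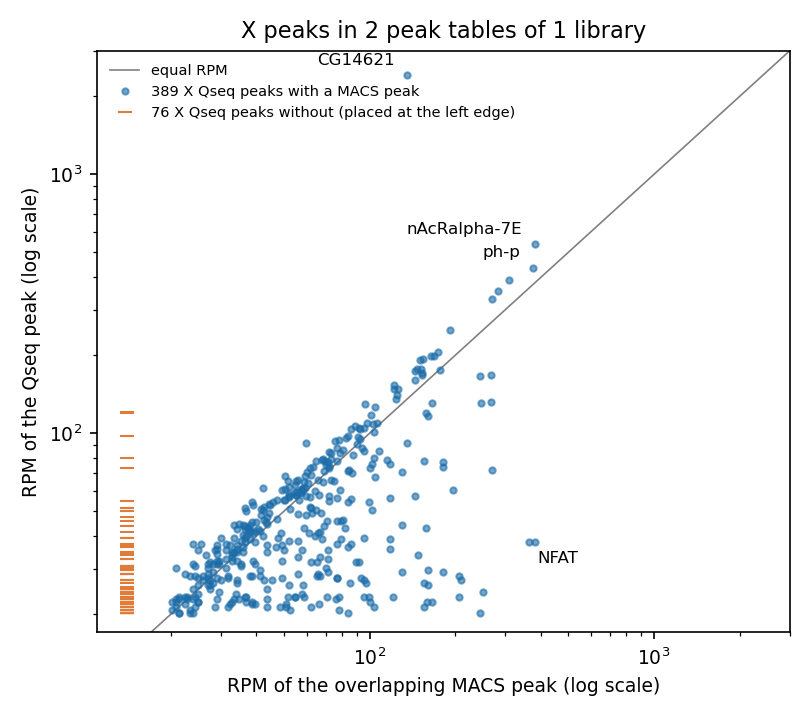
RPM of each X Qseq peak (vertical axis) against that of the MACS peak it overlaps (horizontal axis), both on log scales, with the line of equal RPM. Of 465 peaks 389 have a MACS peak and 76, at the left edge, do not; CG14621 lies far above the line at 2417 against 135.6 RPM, and NFAT below it at 37.9 against 364.1 RPM.

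In the reverse direction, 350 of 578 X MACS peaks above 20 RPM (60.6%) overlapped a Qseq peak, close to 60.7% to 62.7% on the autosomal arms, and 228 did not. The highest of these, named after their values were seen, lay in mnb, the gene of the DYRK family kinase Minibrain, at 600.5 RPM, which is the highest MACS peak of X, between CG7423 and CG15882 at 466.5 RPM, and in ph-d at 330.9 RPM. Further ones were over CG9921 and Dsp1 at 247.3 RPM and in the plastin gene Fim at 228.0 RPM. The Qseq table names mnb through 2 other peaks inside the gene, of 51.4 and 30.6 RPM, so that a missed block is not always a missed gene.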

How the data were processed

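Embryo DNA from the un-driven m8 DamID was used, of which the tables hold 1 of 2 libraries. No other condition was analysed. The authors assembled reads with DNASTAR SeqMan NGen 12.2, named the build dm6, and called peaks with Qseq (at least 20 RPM, p under 0.05) and MACS, of a version not given in the sources used here. In the deposited tables, the RPM of a peak is its reads per 1000000 library reads and grows with its length. The deposited count is its reads, and count over RPM gives 1925155 library reads, so 1 RPM is 1.93 reads. The authors' p-values, MACS scores and remaining sheets were not used. All value columns were matched to the condition (0 unmatched).

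Peaks were counted per arm with Release 6 lengths. The table itself carries notes that its X positions are not correct, so no position was converted. Names were matched to RefSeq by symbol or by a synonym of 1 gene. Overlap with MACS meant at least 1 bp. The intervals at 95% are exact (Poisson, binomial, order statistic) and were checked on simulated data. No test was made. The text names genes of the 20 highest X peaks, the 10 genes with the most peaks and those tied with them, list genes with a peak, miRNA genes under or beside a peak and divergent pairs under 1 peak. X, the 15 lists and the comparisons were chosen with earlier results of these data known. Scripts ran in Python 3.11.15 with scipy 1.17.1, pandas 2.3.3 and numpy 2.4.6, and plots used matplotlib 3.10.9.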

Additional observations from a re-analysis of the deposited data

How the results depend on the processing

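No paired analysis was possible because the peak tables hold 1 library. Of 37 alternatives, 19 stayed inside the 95% interval of the reported value and 18 moved out of it. The alternatives for the density ratio and the summed RPM were chosen after seeing the data. With MACS above 20 RPM in place of Qseq, X had 24.6 peaks per Mb, a median of 47.3 RPM and 1072 bp, 15.2% of peaks at 100 RPM or more and 17.3% of genes named. The autosomal arms then had 30.8 per Mb, 55.6 RPM, 1138 bp, 24.7% and 17.7%. At a minimum of 40 RPM, X had 8.75 peaks per Mb, a median of 1036 bp, 7.65% of genes named and 94.2% of peaks with a MACS peak, against 14.6, 1023 bp, 8.44% and 84.3%, so median length turned from below to above the arms. Counting intersected genes alone gave 10.02%, and adding MACS peaks under 20 RPM 87.1%. The density ratio was 0.601 at 40 RPM or more, 0.392 at 100 RPM or more, 0.797 in MACS above 20 RPM, 0.834 in both MACS tables, 0.491 in MACS at 100 RPM or more and 0.546 between genes. The summed RPM fell to 1056 per Mb without the highest peak. Merging overlapping peaks, leaving out the last 2 Mb of X (29 peaks, genes still counted over all of X) and taking the span of the peaks as arm length left every value they were run on inside its interval. The cause was not tested. A peak near 20 RPM rests on about 39 reads, so genes without a peak may hold signal under that minimum. Arm lengths and gene spans are those of Release 6, not of the numbering in the tables. Positions also differ on other arms. Pairs of a peak and a gene it intersects overlapped in Release 6 in 558 of 562 cases on 2L and 417 of 631 on 3L. On 2R it was 0 of 676 and on 3R 0 of 764.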
